A study of Mus musculus with 24 samples.

Results

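The enzymes of the citric acid cycle and Acod1, the gene of the enzyme that draws a metabolite off the cycle to make itaconate, were followed in myeloid cells sorted from the mouse colon. The genes were chosen by symbol, with earlier results of these data known, and no measured value enters the rule: Acod1, Cs, Idh1, Idh2, Idh3a, Ogdh, Fh1, Mdh1 and Mdh2, which are 9 of the 17301 genes deposited. All 9 had a mean level of at least 1 RPKM (reads per kilobase of transcript, scaled to library size) in at least 1 group and entered the tests with 12878 genes in all. The least covered value of the 216 (9 genes in 24 libraries) rested on 22 reads.

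The 4 myeloid populations, which are named by the surface proteins they were sorted on, were taken from 2 tissues, giving 8 groups of 3 libraries. They were F4/80hi MHCIIhi macrophages, F4/80hi MHCIIlow macrophages, Ly6Chi MHCII- monocytes and Ly6Ghi neutrophils, from the colon lamina propria (LP, the connective tissue under the epithelium) of mice labelled C57/BL and from colon tumours of mice labelled APC/Min. The APC/Min (Apc Min/+) mice carry a mutant copy of the tumour suppressor Apc in the germline, so the sorted myeloid cells carry it too. The study's text describes both strains as young adult mice of both sexes that drank dextran sodium sulphate, an irritant of the colon, for a week and were killed some weeks later, the C57BL/6J mice at the lower concentration; the labels call the LP healthy. Each library came from a pool of animals that the labels number as a donor, and 1 such number stands in several populations of a tissue. Tissue, strain and the digestion and density enrichment of the cells changed together, as did, by the study's text, the sulphate concentration. Their parts in a difference between tumour and LP cannot be told apart. The p-values rest on the spread between these pools within a group, with 1 estimate per gene shared by all 8 groups. The spread among neutrophil libraries thus also enters the tests of macrophages. In sorted bulk RNA, fewer cells of a type and less RNA per cell also cannot be told apart.

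The citric acid cycle burns acetyl groups in the mitochondrion and hands their electrons to the respiratory chain, and its intermediates also leave it to build lipids, amino acids and signalling molecules. In activated macrophages the cycle is known to be rerouted: citrate and succinate build up, and Acod1 (also called Irg1), which is induced by microbial products and interferons, converts cis-aconitate to itaconate. Itaconate inhibits succinate dehydrogenase and modifies Keap1, which frees the antioxidant regulator Nrf2. Mature neutrophils are known for few mitochondria and for living mainly on glycolysis.

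The macrophages and neutrophils carried the markers of their names. The summed level of 8 macrophage markers (Adgre1, Cd68, C1qa, C1qb, C1qc, Mrc1, Cx3cr1 and Mertk) was 3943 to 7278 RPKM in the macrophage libraries and 438.5 to 623.4 RPKM in monocytes and neutrophils. The summed level of 6 neutrophil markers was 11430 to 29000 RPKM in neutrophils and 23.4 to 147.6 RPKM elsewhere, and Ly6g was at 0 reads in 3 of the 4 macrophage groups. Of 5 monocyte markers, Ccr2 was highest in monocytes (6.81 in LP and 6.49 in tumours on the log2 scale), but the mean of Ly6c2 was higher in tumour neutrophils (6.39) than in tumour monocytes (5.93) and that of F13a1 higher in LP MHCIIlow macrophages (7.59) than in LP monocytes (6.46). Their sum was 309.7 to 582.8 RPKM in monocytes and 499.5 to 786.5 RPKM in neutrophils. In LP MHCIIlow macrophages it was 121.4 to 451.5 RPKM, overlapping the monocytes, and in LP MHCIIhi macrophages 56.18 to 62.48 RPKM. In tumour macrophages it was 12.03 to 18.26 RPKM. Between 12838061 and 41718078 reads (median 26389148) were counted per library. The library size behind the deposited values was 0.466 to 1.51 times the reads counted, and it was lowest in the neutrophils, at 0.630 to 0.682 times in LP and 0.466 to 0.483 times in tumours. That factor sets every gene of a neutrophil library higher than on the reads counted, by the same amount. Results of neutrophils are therefore also given relative to the reads counted, a scale chosen after seeing the data. On that scale all genes of neutrophils move down together. The median log2 difference of all genes between neutrophils and monocytes was then -1.07 in LP and -1.49 in tumours. Which scale is the better one was not tested.

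Acod1 (ENSMUSG00000022126) lies on chr14:103046977-103056573, plus strand, in GRCm38. The enzymes lie on chromosomes 10 (Cs), 1 (Idh1 and Fh1), 7 (Idh2), 9 (Idh3a), 11 (Ogdh and Mdh1) and 5 (Mdh2). Reads of the 51-base length used are unique to each gene, except that 1.92% of the 51-base stretches of Cs are shared with Csl and 0.195% of those of Mdh1 with Wdpcp, which also covers 2.03% of the exon bases of Mdh1 from the opposite strand. The bases before the transcription start set Acod1 beside the enzymes. They are shown for Acod1, for Cs, which encodes the first enzyme of the cycle and was higher in tumours in 3 populations, and for Fh1, the enzyme at the lowest level in neutrophils. Each line gives the 250 bases before the start in RefSeq (GRCm38.p6), 5′ to 3′ on the strand of the gene, with capitals at TATAAA (the TATA box), at CCAAT (bound by NF-Y) and at GGGCGG (bound by Sp1) on either strand. They span chr14:103046762-103047011 for Acod1 (plus strand), chr10:128337477-128337726 for Cs (plus strand) and chr1:175625636-175625885 for Fh1 (minus strand).
Acod1: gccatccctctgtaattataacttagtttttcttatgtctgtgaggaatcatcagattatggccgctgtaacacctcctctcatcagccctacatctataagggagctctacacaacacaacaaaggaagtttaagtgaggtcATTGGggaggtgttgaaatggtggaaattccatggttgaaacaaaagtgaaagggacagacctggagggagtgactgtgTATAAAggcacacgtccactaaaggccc
Cs: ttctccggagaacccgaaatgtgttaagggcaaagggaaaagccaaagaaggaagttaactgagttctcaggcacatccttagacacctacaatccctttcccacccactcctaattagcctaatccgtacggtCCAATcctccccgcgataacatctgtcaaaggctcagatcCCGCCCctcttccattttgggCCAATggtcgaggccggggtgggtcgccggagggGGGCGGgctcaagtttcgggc
Fh1: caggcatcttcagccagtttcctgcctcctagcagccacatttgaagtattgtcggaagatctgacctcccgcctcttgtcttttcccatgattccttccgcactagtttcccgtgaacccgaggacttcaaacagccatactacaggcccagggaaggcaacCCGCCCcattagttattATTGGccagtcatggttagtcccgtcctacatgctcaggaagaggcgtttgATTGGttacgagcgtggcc

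The Acod1 window held 2 CpG pairs and 44.4% G and C, and a TATAAA began 28 bases before the start. GENCODE places the first Acod1 start within this window, upstream of the RefSeq start and of this TATAAA. The TATAAA thus lies before the RefSeq start but not before that GENCODE start. The window of Cs held 13 CpG pairs and 55.2% G and C, and that of Fh1 held 10 and 52.8%. RefSeq windows were found for 8 of the 9 genes, 14 windows in all with alternative starts. The 7 enzymes among them had 9 to 35 CpG pairs per window, against a median of 6 over 32851 windows of all genes, and none held TATAAA, which stands in 12.4% of all windows. CCAAT, in 33.9% of all windows, or GGGCGG, in 32.7%, was found in at least 1 window of every enzyme. Ogdh has several windows, and some of them held neither. The share of all windows or genes with either was not counted, so this is not shown to set the enzymes apart. A single fixed string of letters was searched for NF-kB and another for the interferon response. The letters TTGCNNAA (C/EBP) and TGANTCA (AP-1) were searched too, all on both strands. None had a match in the Acod1 window, and in that order they match in 1.41%, 2.98%, 9.56% and 6.75% of all windows. Looser forms of these sites were not searched, so the Acod1 window is not shown to lack them.

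Acod1 spanned the widest range of the 9 genes, 9.48 on the log2 scale between its lowest and highest group mean, a 714-fold range. Values are log2 RPKM per library. In neutrophils it reached 14.00, 14.02 and 14.15 in the tumour libraries, and 12.17, 11.66 and 11.76 in the LP libraries. These are among the most abundant transcripts of the cell: Acod1 ranked 4 to 6 of all genes by RPKM in tumour neutrophils and 11 to 19 in LP neutrophils, with 2.00% to 2.30% and 0.580% to 0.761% of all reads. Monocytes followed at 8.22, 8.19 and 7.76 in LP and 8.53, 7.31 and 7.58 in tumours. The macrophages were lowest. MHCIIlow macrophages had 5.08, 5.06 and 4.73 in LP and 5.83, 5.81 and 5.54 in tumours. MHCIIhi macrophages had 5.22, 5.48 and 5.23 in LP and 4.57, 4.70 and 4.46 in tumours.

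The order of the group means was tumour neutrophils (14.05 ± 0.08, SD, n = 3), LP neutrophils (11.87 ± 0.27), LP monocytes (8.06 ± 0.26), tumour monocytes (7.81 ± 0.64), tumour MHCIIlow macrophages (5.73 ± 0.17), LP MHCIIhi macrophages (5.31 ± 0.15), LP MHCIIlow macrophages (4.96 ± 0.20) and tumour MHCIIhi macrophages (4.58 ± 0.12). The monocytes of the 2 tissues overlapped. The macrophage subsets of LP did not overlap, but their log2 difference of -0.35 (95% interval -0.82 to 0.12, adjusted p = 0.427) was not called. The other neighbours in that order did not overlap either, and of these the 2 neutrophil groups, and LP neutrophils and LP monocytes, were tested against each other.

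**Figure D1:**
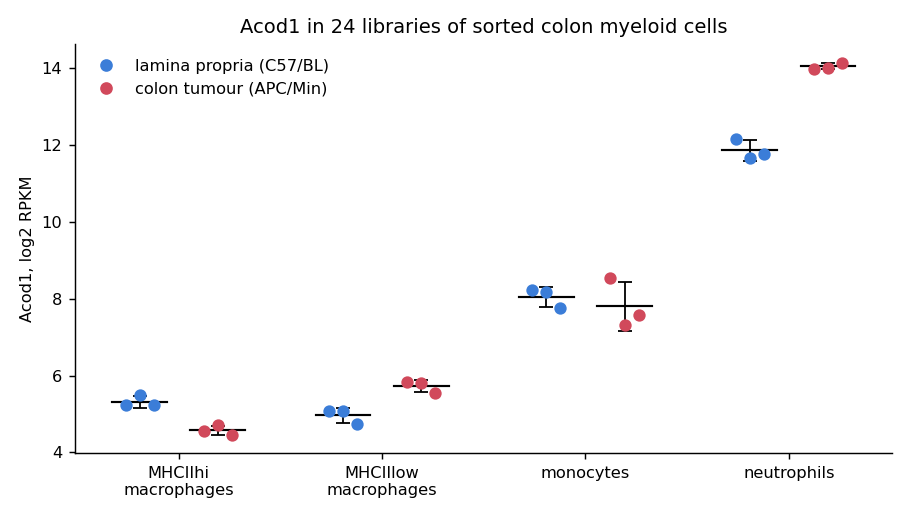
Acod1 in log2 RPKM (vertical axis) in the 24 libraries, by population (horizontal axis) and tissue (blue for LP, red for tumour); points are libraries, long bars the mean of 3 and error bars the SD. The 3 tumour neutrophil libraries lie at 14.00 to 14.15, above the LP neutrophils at 11.66 to 12.17, and in macrophages the 2 subsets part in opposite directions.

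In macrophages Acod1 went opposite ways in the 2 subsets. It was lower in tumour than in LP MHCIIhi macrophages, by a log2 fold change of -0.74 ± 0.22 (SE; limma, adjusted p = 0.0251), with all 3 tumour libraries under all 3 LP libraries. It was higher in tumour than in LP MHCIIlow macrophages, by 0.77 ± 0.22 (adjusted p = 0.0163), again without overlap. The difference between these tumour effects was 1.51 ± 0.32 (adjusted p = 0.020), a comparison in which 1.13% of all genes were called higher and 0.326% lower. Over the mean of both subsets the change was 0.02 (95% interval -0.31 to 0.35). Within tumours, MHCIIlow macrophages had 1.15 ± 0.22 more Acod1 than MHCIIhi macrophages (adjusted p = 0.0165), a 2.22-fold difference; with the replicate number as a block it was 1.15 (adjusted p = 0.140).

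These macrophage calls were close to the threshold. The call in MHCIIhi macrophages was lost without LP donor IV (-0.65, adjusted p = 0.101), tumour donor I or tumour donor VII. The call in MHCIIlow macrophages was lost without LP donor IV (0.65, adjusted p = 0.0774), tumour donor I or tumour donor V. The difference between the effects was lost without LP donor IV or tumour donor VII in MHCIIhi macrophages, or without tumour donor V in MHCIIlow macrophages, where it stood at 1.42, 1.45 and 1.46 (adjusted p = 0.0634, 0.0581 and 0.0624). The difference between the subsets within tumours was lost without tumour donor I or VII in MHCIIhi macrophages or donor V in MHCIIlow macrophages (1.09 to 1.15, adjusted p = 0.0509 to 0.0738), and when the spread was taken from the 6 libraries compared (adjusted p = 0.116).

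In neutrophils Acod1 was 4.56-fold higher in tumours than in LP (log2 fold change 2.19 ± 0.22, adjusted p = 7.2e-07), and 1.72 on the log2 scale relative to the reads counted (adjusted p = 1.8e-06). In monocytes it was not called (-0.25, 95% interval -0.72 to 0.22), but without tumour donor I it was -0.61 and called lower (adjusted p = 0.0486). The tumour effect in neutrophils exceeded that in monocytes by 2.44 ± 0.32 (adjusted p = 1.2e-04). Monocytes exceeded the mean of both macrophage subsets by 2.92 ± 0.19 in LP (7.58-fold, adjusted p = 1.0e-09) and 2.65 ± 0.19 in tumours (6.30-fold, adjusted p = 1.5e-09). Neutrophils exceeded monocytes by 3.81 in LP (14.0-fold) and by 6.25 in tumours (76.0-fold). Relative to the reads counted these were 2.98 (7.91-fold) and 5.11 (34.7-fold), and over all settings they were at least 2.84 and 4.66.

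Neutrophil transcripts in the other libraries were measured beside Acod1. In LP monocytes Acod1 stood at 5.73% to 7.92% of the mean of LP neutrophils, whereas S100a8, S100a9, Cxcr2, Retnlg and Ly6g stood at no more than 0.800%. In tumour monocytes Acod1 stood at 0.932% to 2.17% and those 5 genes at no more than 0.522%. In LP MHCIIhi and MHCIIlow macrophages Acod1 stood at 0.702% to 1.18% and the 5 genes at no more than 0.0670%. In tumour MHCIIhi macrophages it stood at 0.129% to 0.152% against no more than 0.0648%, and in tumour MHCIIlow macrophages at 0.273% to 0.335%, where Ly6g reached 0.571% and the other 4 no more than 0.168%. Csf3r, the receptor for granulocyte colony-stimulating factor, was the sixth of these markers and was itself at 1.02% to 3.63% in macrophages and monocytes. The mean of Acod1 was 17040 RPKM in tumour neutrophils and 3774 RPKM in LP neutrophils. It was 53.25 RPKM in tumour and 31.29 RPKM in LP MHCIIlow macrophages, and 23.9 RPKM in tumour and 39.84 RPKM in LP MHCIIhi macrophages. How much of the Acod1 in macrophages came from neutrophil RNA was not tested.

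The enzymes showed another order. Of the 8, 7 were lower in neutrophils than in monocytes, in LP and in tumours alike, while the result for Mdh2 depended on the scaling. In LP the neutrophils had less Cs (-0.99 ± 0.12), Idh1 (-2.13 ± 0.29), Idh2 (-2.23 ± 0.34), Idh3a (-2.92 ± 0.39), Ogdh (-0.62 ± 0.11), Fh1 (-2.04 ± 0.37) and Mdh1 (-2.17 ± 0.25, log2 fold change ± SE), with adjusted p between 3.6e-07 and 1.2e-04 and no overlap. In tumours the same 7 differed by -0.42 for Cs, -2.15 for Idh1, -1.59 for Idh2, -1.78 for Idh3a, -0.50 for Ogdh, -2.11 for Fh1 and -1.84 for Mdh1. Of all genes, 24.1% were called higher and 30.4% lower in LP neutrophils, and 23.3% higher and 34.9% lower in tumour neutrophils; the medians of all genes were -0.24 and -0.36, and those of the 8 enzymes -2.08 and -1.69. Centred on the library median, the tumour difference of Cs became 0.03 and that of Ogdh -0.06, so the direction of Cs in tumours depends on the scaling. Relative to the reads counted, all 7 kept a negative difference, from -1.55 to -3.29 in tumours.

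Mdh2, the malate dehydrogenase of the mitochondrion, which closes the cycle by remaking oxaloacetate, parted from its cytosolic counterpart Mdh1. In neutrophils Mdh2 read 6.37, 6.43 and 6.35 in LP and 7.55, 7.49 and 7.14 in tumours, while Mdh1 read 2.52, 2.28 and 3.18 in LP and 3.37, 2.99 and 2.96 in tumours. Within a library, Mdh2 exceeded Mdh1 by 3.72 ± 0.50 in LP neutrophils and 4.29 ± 0.18 in tumour neutrophils on the log2 scale, which is 13.2-fold and 19.5-fold. The gap was 1.56 ± 0.43 and 1.98 ± 0.17 in LP and tumour monocytes, and 0.64 to 1.28 in the 4 macrophage groups. Between neutrophils and monocytes Mdh2 differed by -0.01 (95% interval -0.41 to 0.39) in LP and by 0.28 after centring; it was called lower after quantile normalization (-0.71, adjusted p = 0.0043) and relative to the reads counted (-0.83, adjusted p = 3.6e-04). In tumours it was 0.47 ± 0.19 higher (adjusted p = 0.0416) on the deposited scale, but called lower after quantile normalization (-0.54, adjusted p = 0.0245) and relative to the reads counted (-0.67, adjusted p = 0.0022). It was also lost without any 1 of the 3 tumour monocyte libraries or tumour neutrophil donors I and II (0.39 to 0.52, adjusted p = 0.0514 to 0.133), and with the replicate block (0.47, adjusted p = 0.0951).

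The 3 isocitrate dehydrogenases had their lowest mean in LP neutrophils and their highest in tumour MHCIIlow macrophages. Between monocytes and macrophages Idh2 was called in both tissues, while Idh1 and Idh3a were called in neither. Idh1 in LP was called after quantile normalization and with voom. Idh1 works in the cytosol and makes NADPH, Idh2 does so in the mitochondrion, and Idh3a is the catalytic subunit of the NAD-dependent enzyme of the cycle. Idh2 was highest in macrophages, at 4.42 ± 0.13 and 5.36 ± 0.34 in LP MHCIIhi and MHCIIlow cells and 5.51 ± 0.16 and 5.71 ± 0.18 in their tumour counterparts. In monocytes it stood at 3.35 ± 0.37 (LP) and 3.51 ± 0.40 (tumour), and neutrophils had 1.12 ± 1.01 (LP) and 1.92 ± 0.33 (tumour). Monocytes thus had less Idh2 than macrophages by -1.54 ± 0.30 in LP (adjusted p = 5.1e-04) and -2.10 ± 0.30 in tumours (adjusted p = 9.6e-06). The mean difference of Idh2 from Idh1 within a library was 0.14 to 0.56 in the macrophage groups, with 1 tumour MHCIIlow library at -0.18, while the same difference was -0.60 ± 0.29 in LP monocytes and -1.72 ± 0.67 in tumour monocytes. Idh3a read 1.41, -0.55 and 1.34 in LP neutrophils and 2.98, 2.32 and 2.12 in tumour neutrophils; the lowest library rested on 22 reads.

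**Figure D2:**
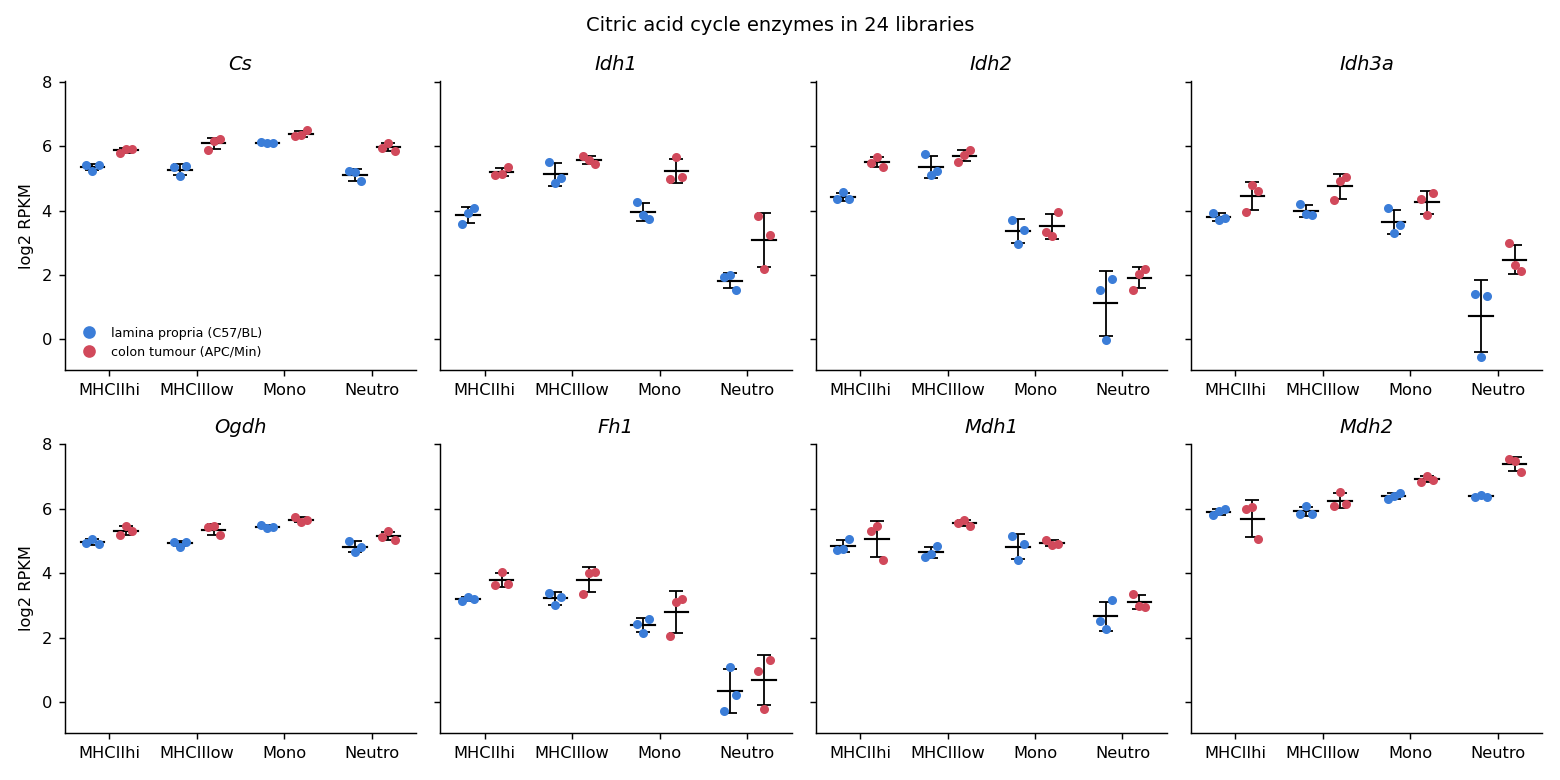
The 8 enzymes in log2 RPKM (vertical axes) in the 24 libraries, by population (horizontal axes) and tissue (blue for LP, red for tumour); points are libraries, long bars the mean of 3 and error bars the SD. Cs and Ogdh stay between 4.66 and 6.49 in every library, while Idh2, Idh3a and Fh1 reach values near 0 in neutrophils, where Mdh2 reads at least 6.35.

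Cs and Ogdh, which make citrate and carry the core subunit of the 2-oxoglutarate dehydrogenase complex, varied least, with ranges of group means of 1.28 and 0.83. Both were highest in monocytes. Against the mean of both macrophage subsets, LP monocytes had more Cs (0.79 ± 0.10), Ogdh (0.50 ± 0.10) and Mdh2 (0.48 ± 0.17, adjusted p = 0.0338). There 3 enzymes were higher and 1 lower, while 17.0% of all genes were called higher and 12.5% lower. In tumours Cs (0.41 ± 0.10), Ogdh (0.32 ± 0.10) and Mdh2 (0.95 ± 0.17) were higher, and Idh2 and the fumarase gene Fh1 (-1.0 ± 0.32, adjusted p = 0.0182) lower, while 21.4% of all genes were called higher and 16.8% lower. The tumour calls of Cs and Ogdh depend on the scaling: relative to the reads counted they were 0.06 and -0.02, and after quantile normalization 0.03 and -0.03. Without tumour monocyte donor I the difference of Fh1 was -0.62 (adjusted p = 0.178) and that of Ogdh 0.28 (adjusted p = 0.0768). With the replicate block they were -0.82 (adjusted p = 0.158) and 0.25 (adjusted p = 0.152). The LP call of Mdh2 was lost without any 1 of LP MHCIIhi donors III and IV, LP MHCIIlow donors II and IV, and monocyte donors III, IV and V (adjusted p = 0.0505 to 0.125), after quantile normalization (0.26, adjusted p = 0.248) and relative to the reads counted (0.36, adjusted p = 0.0806).

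Tumour macrophages had more of several enzymes than LP macrophages. In MHCIIhi macrophages 4 of the 8 enzymes were higher and none was lower, where 8.01% of all genes were called higher and 11.5% lower. With Acod1 that makes 5 members called, and 2 or 3 when any 1 of the 6 libraries was left out (2 without tumour donor VII). In MHCIIlow macrophages 3 of the 8 were higher and none was lower, where 11.5% of all genes were called higher and 11.8% lower. Over the mean of both subsets 5 of the 8 (Cs, Idh1, Idh2, Ogdh and Mdh1) were higher, where 16.3% of all genes were called higher and 17.6% lower; the median difference of the 8 enzymes was 0.62 and that of all genes 0.03. The call of Idh2 was lost without LP MHCIIhi donor III or V, LP MHCIIlow donor III or IV, tumour MHCIIhi donor V or tumour MHCIIlow donor VII (0.65 to 0.69, adjusted p = 0.0531 to 0.0633), and that of Mdh1 without tumour MHCIIhi donor V (0.46, adjusted p = 0.0532).

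Cs read 5.40, 5.24 and 5.40 in LP and 5.78, 5.92 and 5.92 in tumour MHCIIhi macrophages, a difference of 0.52 ± 0.12 (adjusted p = 0.0034). In MHCIIlow macrophages it read 5.36, 5.07 and 5.40 in LP and 5.87, 6.15 and 6.22 in tumours, a difference of 0.81 ± 0.12 (adjusted p = 4.3e-05). Every tumour macrophage library lay above every LP macrophage library. Ogdh did so too, with smaller differences of 0.35 ± 0.11 (adjusted p = 0.0358) and 0.43 ± 0.11 (adjusted p = 0.0084); the call in MHCIIhi macrophages was lost without LP donor III or V, or without tumour donor V or VII (0.28 to 0.36, adjusted p = 0.0699 to 0.149), and with no filter, the libraries compared alone or centring on the library median (0.29 to 0.35, adjusted p = 0.0578 to 0.0813).

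Idh1 and Idh2 differed between the tissues in MHCIIhi macrophages. Idh1 read 3.57, 3.92 and 4.08 in LP and 5.10, 5.14 and 5.34 in tumours, a 2.52-fold difference (1.33 ± 0.29, adjusted p = 0.0028). Idh2 read 4.35, 4.57 and 4.35 in LP and 5.48, 5.68 and 5.36 in tumours, a 2.12-fold difference (1.08 ± 0.34, adjusted p = 0.0294), which was not called when any 1 of these 6 libraries was left out (1.00 to 1.16, adjusted p = 0.0527 to 0.0894). In MHCIIlow macrophages the tissues overlapped for both: Idh1 differed by 0.45 (95% interval -0.17 to 1.06) and Idh2 by 0.34 (-0.37 to 1.05). LP MHCIIlow macrophages already stood higher, at 5.52, 4.84 and 5.01 for Idh1, than LP MHCIIhi macrophages, a difference of 1.26 ± 0.29 (adjusted p = 0.0110) that was lost without LP MHCIIhi donor III or LP MHCIIlow donor II (1.12 and 1.07, adjusted p = 0.0633 and 0.0684) and with the replicate block (1.02, adjusted p = 0.0556). In LP, 2.13% of all genes were called higher and 5.57% lower in MHCIIlow than in MHCIIhi macrophages, and Idh1 was the 1 member called. In tumours 0.567% were called higher and 0.567% lower, and Acod1 was the 1 member called. The tumour effects of Idh1 and Idh2 were not shown to differ between the subsets (-0.89, 95% interval -1.76 to -0.02, and -0.74, -1.75 to 0.27; adjusted p = 0.377 and 0.600).

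Mdh1 was higher in tumour than in LP MHCIIlow macrophages, at 5.55, 5.67 and 5.47 against 4.51, 4.6 and 4.84 (0.91 ± 0.25, adjusted p = 0.0097). In MHCIIhi macrophages it read 5.30, 5.45 and 4.42 in tumours and overlapped LP (0.21, 95% interval -0.30 to 0.72); without the low library, tumour donor VII, the difference was 0.53 and was not called. That library was also lowest for Mdh2, at 5.05 against 6.0 and 6.04; the tumour difference of Mdh2 was -0.21 (-0.60 to 0.19) with it and 0.12 without it. Idh3a and Fh1 differed by 0.65 and 0.57 between tumour and LP MHCIIhi macrophages and were not called (limma, adjusted p = 0.276 and 0.323). In MHCIIlow macrophages they differed by 0.77 and 0.58 (adjusted p = 0.167 and 0.294). With voom Idh3a was called in both subsets (adjusted p = 0.0383 and 0.0248) and with array weights in MHCIIhi macrophages (adjusted p = 0.0467), and Fh1 was called in MHCIIhi macrophages with the libraries compared alone (adjusted p = 0.0330).

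In monocytes 1 enzyme, Idh1, was higher in tumours, where 4.86% of all genes were called higher and 4.43% lower. It read 4.27, 3.87 and 3.73 in LP and 4.99, 5.65 and 5.05 in tumours (1.28 ± 0.29, adjusted p = 0.0085). Without tumour donor II the difference was 1.07 (adjusted p = 0.0553). Cs (0.28), Ogdh (0.21) and Mdh2 (0.53) were not called, with adjusted p of 0.157, 0.293 and 0.0909 (limma). Mdh2 was called after centring, with the libraries compared alone and with array weights (0.53 to 0.61, adjusted p = 0.0269 to 0.0444). Idh2, Idh3a, Fh1 and Mdh1 were not called either, with differences of 0.15, 0.61, 0.41 and 0.11. The macrophage tumour effects were compared with the monocyte one for every member and none was called, where 3.55% of all genes were called higher and 5.64% lower; at an unadjusted p under 0.05 1 stood, Cs (0.38, adjusted p = 0.113), while array weights or quantile normalization called 1 member and scaling to the reads counted called 2.

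In neutrophils 5 of the 8 enzymes were higher in tumours and none was lower, where 13.1% of all genes were called higher and 19.0% lower. Cs read 5.23, 5.19 and 4.91 in LP and 5.96, 6.09 and 5.84 in tumours (0.86 ± 0.12, adjusted p = 2.0e-05). Mdh2 was 2.01-fold higher (1.01 ± 0.19, adjusted p = 4.7e-04). Idh1 read 1.94, 2.00 and 1.55 in LP and 3.82, 2.18 and 3.23 in tumours (1.25 ± 0.29, adjusted p = 0.0030), and Idh3a was 3.35-fold higher (1.74 ± 0.39, adjusted p = 0.0018). Relative to the reads counted, the differences were 0.39 for Cs, 0.54 for Mdh2, 0.78 for Idh1 and 1.275 for Idh3a (limma, adjusted p = 0.0125 to 0.0475). When the spread was taken from the 6 neutrophil libraries alone, Idh1 and Idh3a were not called (adjusted p = 0.118 and 0.115), and with voom on the recovered reads Idh3a was not called either (1.66, adjusted p = 0.0811). Ogdh differed by 0.33 ± 0.11 (adjusted p = 0.0329), and relative to the reads counted by -0.14, so its direction depends on the scaling; it was also lost with no filter, quantile normalization, the libraries compared alone, array weights or voom (adjusted p = 0.0522 to 0.157) and without LP donor IV or V or tumour donor I or II (0.24 to 0.34, adjusted p = 0.0524 to 0.143). Idh2, Fh1 and Mdh1 differed by 0.80, 0.34 and 0.44 and were not called, though without LP donor V or after centring Idh2 (1.17 and 1.04) and Mdh1 (0.70 and 0.69) were, and Idh2 also after quantile normalization (0.89); relative to the reads counted Fh1 and Mdh1 stood at -0.13 and -0.02. The median of all genes in this comparison was -0.12 on the deposited scale, 0.12 after centring on the library median and -0.59 relative to the reads counted. The tumour effect on Cs was 0.57 ± 0.17 greater in neutrophils than in monocytes (adjusted p = 0.0361), where 3.61% of all genes were called higher and 5.50% lower, and it was lost in 6 of the 10 other settings and without LP neutrophil donor V, tumour neutrophil donor I or II, any LP monocyte donor, or tumour monocyte donor I or II (0.47 to 0.58, adjusted p = 0.0518 to 0.0907).

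**Figure D3:**
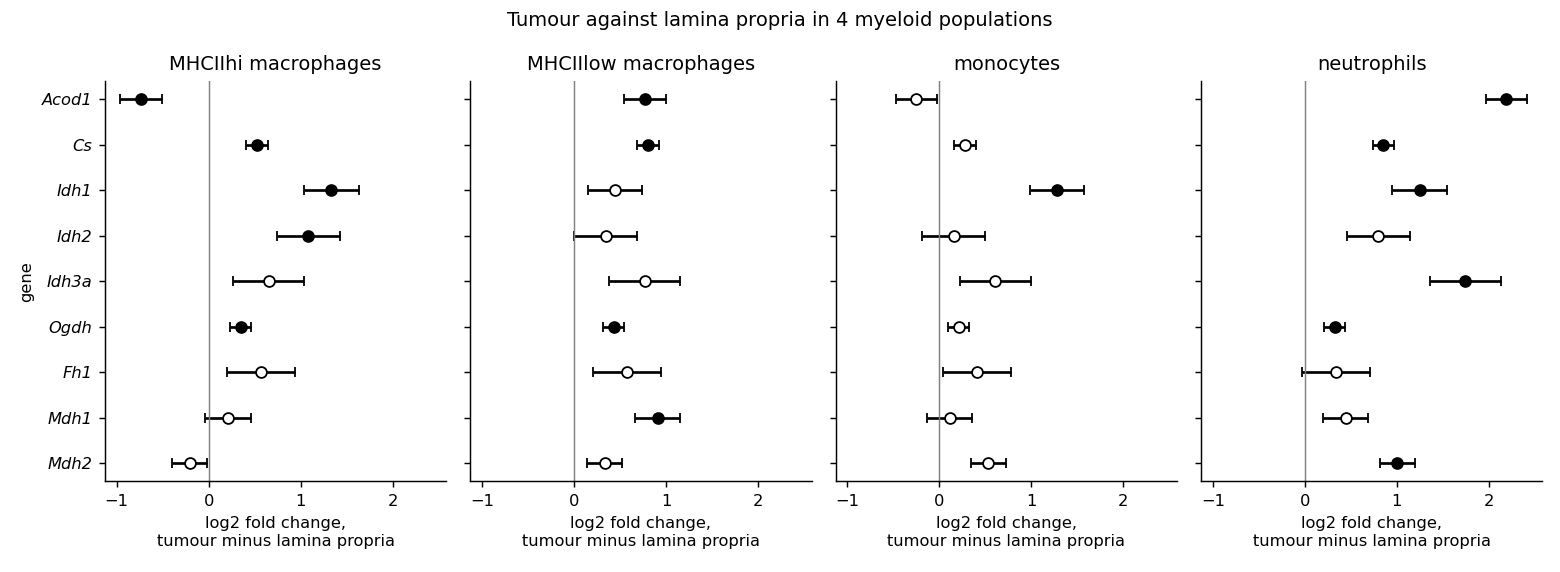
Log2 fold change between tumour and LP (horizontal axes, tumour minus LP, bars are the SE) of the 9 genes (vertical axis) in 4 populations; filled points passed an adjusted p of 0.05 and open points did not. Idh1 lies at 1.25 to 1.33 in MHCIIhi macrophages, monocytes and neutrophils, and Acod1 runs from -0.74 in MHCIIhi macrophages to 2.19 in neutrophils.

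**Figure D4:**
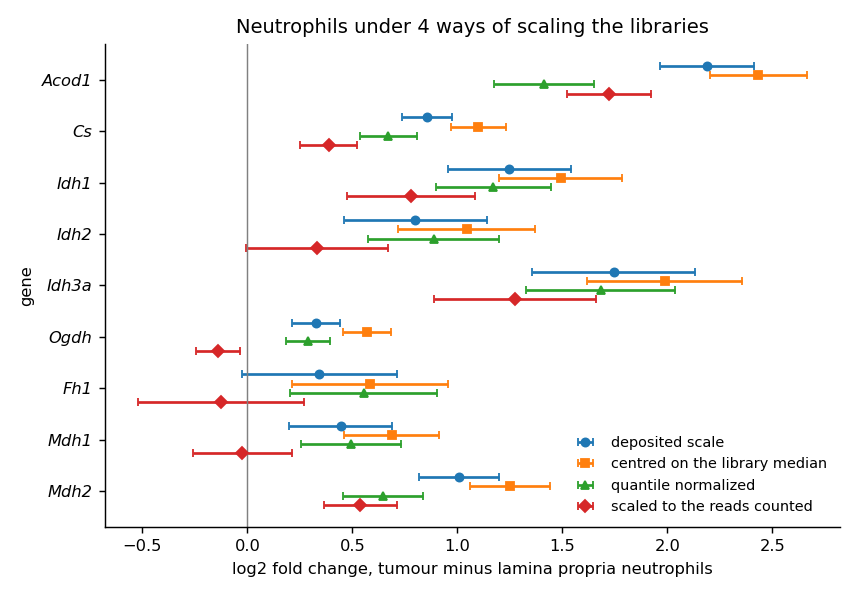
Log2 fold change between tumour and LP neutrophils (horizontal axis, bars are the SE) of the 9 genes (vertical axis) with the libraries scaled in 4 ways. Acod1, Cs, Idh1, Idh2, Idh3a and Mdh2 stay above 0 under all 4, and Ogdh stands at -0.14 relative to the reads counted.

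Transcripts of other cell types differed between the tissues, and their part in these differences was not tested. The summed level of 7 epithelial markers was 12.7 to 62.2 RPKM in LP neutrophils and 151.1 to 307.0 RPKM in tumour neutrophils, and none of the 7 was at 0 reads throughout either group. In monocytes it was 19.4 to 212.4 RPKM in LP and 104.2 to 315.8 RPKM in tumours, in MHCIIhi macrophages 4.95 to 17.0 RPKM and 7.49 to 66.6 RPKM, and in MHCIIlow macrophages 18.2 to 23.3 RPKM and 12.6 to 192.9 RPKM. The sum of 5 B and plasma cell markers was 351.0 to 1295 RPKM in LP neutrophils and 0.59 to 20.1 RPKM in tumour neutrophils, and 157.2 to 575.0 RPKM in LP monocytes and 0.188 to 4.68 RPKM in tumour monocytes. The sum of 5 dendritic cell markers was 44.3 to 65.3 RPKM in LP and 5.04 to 14.3 RPKM in tumour MHCIIhi macrophages, and 75.6 to 146.8 RPKM in LP and 2.45 to 18.2 RPKM in tumour neutrophils. The sum of 6 fibroblast markers was 6.83 to 62.0 RPKM in LP macrophages and 0.181 to 1.17 RPKM in tumour macrophages, where Lum was at 0 reads. For the 5 monocyte markers the sum was 56.18 to 62.48 RPKM in LP and 12.03 to 17.74 RPKM in tumour MHCIIhi macrophages. In MHCIIlow macrophages it was 121.4 to 451.5 RPKM in LP and 12.69 to 18.26 RPKM in tumours. The 4 MHCII genes summed to 39000 to 45690 RPKM in LP MHCIIhi macrophages and 16670 to 41090 RPKM in tumour ones, and to 875.9 to 3883 RPKM in LP MHCIIlow macrophages and 2116 to 9853 RPKM in tumour ones.

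Over the 24 libraries most pairs of enzymes varied together, as a description of libraries that share groups. Of the 28 pairs of enzymes 23 had a positive Pearson correlation (median 0.51). The closest were Idh3a with Mdh1 (r = 0.91), Cs with Ogdh and Idh2 with Fh1 (both 0.89). Without the 6 neutrophil libraries the median over the pairs was 0.36. There Cs with Ogdh (0.91) and Idh2 with Fh1 (0.85) stayed high and Idh3a with Mdh1 was 0.56. Cs and Ogdh turned negative with Idh2 (-0.37 and -0.43) and with Fh1 (-0.13 and -0.26). Mdh2 turned positive with Idh1 (0.07) and Mdh1 (0.27). Over all 24 libraries Mdh2 ran against Idh2 (-0.61) and Fh1 (-0.57). Acod1 ran with Mdh2 (0.77) and against Fh1 (-0.92) and Idh2 (-0.89), and these 3 values were 0.77, -0.78 and -0.84 without neutrophils. The others moved: without neutrophils Acod1 with Mdh1 went from -0.83 to -0.05, with Idh1 from -0.75 to -0.25 and with Idh3a from -0.74 to -0.24. Acod1 with Cs went from 0.0026 to 0.66 and with Ogdh from -0.14 to 0.70, and the median over the 8 enzymes from -0.75 to -0.15.

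Among 5269 genes with a mean of at least 10 RPKM in some group, those whose pattern over the 24 libraries was most like that of Acod1 were Arpc5 (r = 0.99), a subunit of the actin-branching Arp2/3 complex, the acyltransferase gene Mboat7 (0.98) and the glutaredoxin gene Glrx (0.98). For Cs they were Ogdh, Arrdc1 and Adam10 (0.88 to 0.89), and for Ogdh they were Adam10, Qars and Cs (0.89 to 0.90). For Idh1 they were the peroxiredoxin gene Prdx3 and the mitochondrial channel gene Vdac1 (0.94 and 0.93), with D10Jhu81e (0.93). For Idh2 they were Prune2, Sptssa and Sae1 (0.97 to 0.98), for Idh3a Cct7, Ccdc47 and Ap1s1 (0.95), and for Fh1 Rsl1d1, Snapin and Paics (0.96 to 0.97). For Mdh1 they were Tomm40, a subunit of the mitochondrial import pore, Npm1 and Ndufa9, a subunit of respiratory complex I (0.97 each). For Mdh2 they were Prelid1, Arpc1b and the glycolytic gene Pgk1 (0.91 to 0.92).

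Of the other subunits of the cycle, 11 genes were analysed here (Idh3b, Idh3g, Dlst, Dld, Sucla2, Suclg1, Suclg2, Sdha, Sdhb, Sdhc and Sdhd). In tumour against LP, 2 of 11 were higher in MHCIIhi macrophages, 3 in MHCIIlow macrophages and 2 in monocytes, with none lower; in neutrophils 4 were higher and 1 lower. Of all genes, 8.01%, 11.5%, 4.86% and 13.1% were called higher in MHCIIhi macrophages, MHCIIlow macrophages, monocytes and neutrophils, and 11.5%, 11.8%, 4.43% and 19.0% lower, and the list counts that follow stand against the same shares. Idh3g, a regulatory subunit of the NAD-dependent isocitrate dehydrogenase, was higher in MHCIIhi (0.64 ± 0.18) and MHCIIlow macrophages (0.58 ± 0.18). Sdhd, a membrane anchor of succinate dehydrogenase, was higher in MHCIIhi macrophages (0.44 ± 0.13), MHCIIlow macrophages (0.58 ± 0.13) and monocytes (0.57 ± 0.13), and it was the 1 subunit lower in tumour neutrophils (-0.37 ± 0.13). Sdha, the flavoprotein subunit of succinate dehydrogenase, was higher in MHCIIlow macrophages (0.59 ± 0.15), monocytes (0.50 ± 0.15) and neutrophils (0.46 ± 0.15). In neutrophils the succinyl-CoA ligase gene Suclg1 (1.17 ± 0.24) and Dlst (0.81 ± 0.16), the second subunit of the 2-oxoglutarate complex, were higher in tumours. Relative to the reads counted, every difference between tumour and LP neutrophils shifts by -0.47. The neutrophil calls of this list and of those below are on the deposited scale alone. Against monocytes, neutrophils had 6 of the 11 lower and 1 higher in LP, and 5 lower and none higher in tumours. Of all genes, 30.4% were called lower and 24.1% higher in LP, and 34.9% lower and 23.3% higher in tumours. Idh3b, -1.75 ± 0.17 in LP and -1.90 ± 0.17 in tumours, and Sucla2, -1.86 ± 0.22 and -1.80 ± 0.22, were among the lower subunits.

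**Figure D5:**
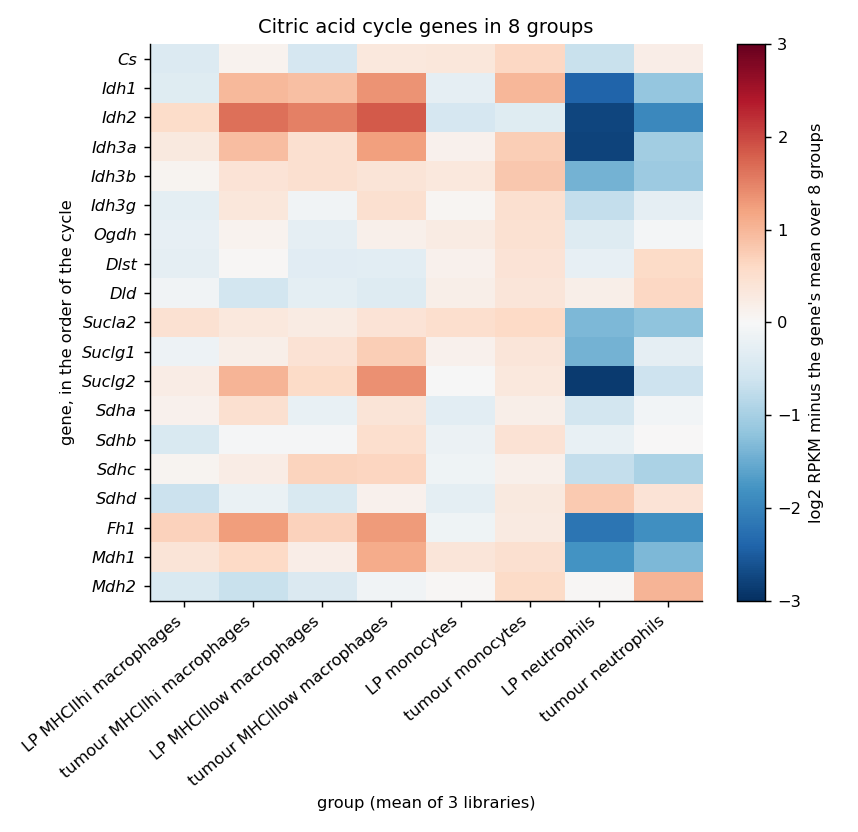
Mean log2 RPKM of 19 cycle genes (rows, in the order of the cycle) in 8 groups (columns, mean of 3 libraries), as the difference from each gene's own mean over the groups (colour scale). Idh1, Idh2, Idh3a, Fh1 and Mdh1 are lowest in neutrophils and highest in tumour MHCIIlow macrophages. Dlst and Dld are highest in tumour neutrophils on this scale. So is Mdh2, which was 0.47 above tumour monocytes here but -0.67 relative to the reads counted.

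At the entry of pyruvate, 2 of 13 genes tested were higher in tumour MHCIIhi and 4 in tumour MHCIIlow macrophages, with none lower, where 8.01% and 11.5% of all genes were called higher. Pdk1, a kinase that switches off pyruvate dehydrogenase, differed most, by 2.74 ± 0.43 (adjusted p = 1.2e-04) and 2.88 ± 0.43 (adjusted p = 5.6e-05). Pdha1, the subunit that this kinase phosphorylates, was 0.73 ± 0.21 higher in MHCIIhi macrophages and 0.67 ± 0.21 in MHCIIlow macrophages, and 12.8% of its 51-base stretches are shared with other genes. In neutrophils 2 of the 13 were higher and 2 lower, where 13.1% of all genes were called higher and 19.0% lower, and in monocytes none was called. Among 11 genes of citrate, malate and aspartate exchange between mitochondrion and cytosol, 5 of them carriers and the others enzymes such as Acly, 2, 5, 1 and 5 were higher in MHCIIhi macrophages, MHCIIlow macrophages, monocytes and neutrophils, and none was lower. Slc25a11, the carrier of malate and 2-oxoglutarate, was higher in both macrophage subsets (0.99 ± 0.14 and 1.01 ± 0.14) and in neutrophils (1.55 ± 0.14), and the aspartate carrier Slc25a12 in all 3 too (1.01 to 1.12). In monocytes the ATP citrate lyase gene Acly, which cuts exported citrate for lipid synthesis, was higher (1.17 ± 0.15, adjusted p = 5.2e-05), as it was in MHCIIlow macrophages (0.50) and neutrophils (0.90). Me1 was at 0 reads in all libraries of tumour MHCIIhi macrophages and tumour neutrophils and at no more than 33 reads in LP MHCIIhi macrophages. Of 2 genes of glutamine entry, the transporter gene Slc1a5 was lower in tumour MHCIIlow macrophages (-1.28 ± 0.27), and neither was called in the other 3 populations.

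Around itaconate, Slc13a3, a dicarboxylate transporter that carries itaconate, was a macrophage transcript. It stood at 3.98 and 4.32 in LP MHCIIhi and MHCIIlow macrophages, at 2.66 and 2.88 in their tumour counterparts, and in monocytes at -1.47 (LP) and -1.39 (tumour). No neutrophil library held more than 6 of its reads. Of the 3 genes of itaconate transport and breakdown, none was called between the tissues in macrophages or monocytes, and in neutrophils Clybl was lower in tumours, with 12 to 46 reads in LP and 0 to 14 in tumours. Of 9 inflammatory signals and partners of Acod1, 1 was higher and 2 lower in tumour MHCIIhi macrophages, and 4 were higher and 1 lower in tumour MHCIIlow macrophages. Ptgs2, which makes prostaglandins, was higher in tumours in all 4 populations (0.94, 1.97, 2.71 and 2.30 in MHCIIhi and MHCIIlow macrophages, monocytes and neutrophils). Il1b was higher in MHCIIlow macrophages (2.19 ± 0.28), monocytes (1.12 ± 0.28) and neutrophils (1.55 ± 0.28), and its tumour effect differed between the macrophage subsets by 1.67 ± 0.40 (adjusted p = 0.043). Nos2, the inducible nitric oxide synthase, was 5.44 ± 0.87 higher in tumour MHCIIlow macrophages. Nfkb1, a subunit of NF-kB, was lower in tumour MHCIIhi (-1.33 ± 0.18) and MHCIIlow macrophages (-1.61 ± 0.18) and higher in tumour neutrophils (0.84 ± 0.18), and Tnf was higher in tumour neutrophils (1.28 ± 0.30).

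Of 6 Nrf2 target genes, 5 were lower in tumour MHCIIhi and 3 in tumour MHCIIlow macrophages, with none higher, where 11.5% and 11.8% of all genes were called lower. Nqo1 differed by -4.20 ± 0.37 and -1.43 ± 0.37, and its tumour effect differed between the subsets by 2.78 ± 0.52 (adjusted p = 0.011). Txnrd1, a thioredoxin reductase, differed by -2.34 ± 0.31 and -0.89 ± 0.31. Of the subunits of the enzyme that starts glutathione synthesis, Gclm was lower in MHCIIhi macrophages (-2.58 ± 0.60) and Gclc in MHCIIhi (-1.65 ± 0.34) and MHCIIlow macrophages (-1.32 ± 0.34). In monocytes Nqo1 was lower (-2.01 ± 0.37) and the haem oxygenase gene Hmox1 higher (1.56 ± 0.34). In neutrophils Hmox1 was higher (1.37 ± 0.34) and Gclc lower (-0.93 ± 0.34).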

How the data were processed

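RNA of sorted cells was amplified by a modified SMARTSeq v2 protocol and sequenced in pairs of 51 bases. Per the labels, the authors aligned reads to GRCm38 (mm10) with STAR 2.3 and counted them with featureCounts 1.5, without stated use of strand. The labels also name edgeR, without a version. The values the authors deposited are log2 RPKM for 17301 genes in 24 libraries. In them every gene averages at least 10.33 reads in some group. ERCC spike-ins were added to the RNA and 0 spike-in rows are in the table.

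From these log2 values whole reads were recovered for 100% of 415224 values (within 0.02 reads) with a prior of 0.25 reads, and served for depth and for an alternative test. Identifiers were paired with GENCODE M21 symbols for 17190 of 17301 genes. Groups were compared with limma 3.58.1 (R 4.3.3; lmFit, contrasts.fit, eBayes with trend) on the log2 values of all 24 libraries, with 1 mean per group, over the 12878 genes whose group mean reached 1 RPKM in any of the 8 groups. Tests are two-sided, errors are SE, and p-values were adjusted by Benjamini-Hochberg within each of 14 comparisons (threshold 0.05). The study itself used limma with voom; voom on the recovered reads was an alternative. On simulated data for the neutrophil comparison over 12878 genes, 67 of 100 genes changed by log2 1 and 95 of 100 changed by log2 2 were recovered, with 7 false calls.

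All 9 genes are named in every comparison or counted, other lists by counts and by up to 3 genes past the threshold with the largest change, less those near 0 reads, and for each of the 9 the 3 genes with the highest correlation. Predicted genes and immunoglobulin and T cell receptor segments were left out of that choice. The 9 genes and the lists were chosen with earlier results of these data known. No 2 libraries were identical, and libraries of a group differed by more than counting noise (chi-square per gene at least 30.9). A donor number was taken to name the same pool in several populations of a tissue, and so to pair libraries within a tissue. The labels do not settle this. The 29 pairs' deviations from group means correlated by -0.07 to 0.25 (median 0.02). Intervals cover 95%. Of the other lists, the least certain genes share 51-base stretches with other genes (Suclg2, Pdha1, Pdhb, Mpc1, Got2 and Me1). Some genes of these lists are not reported here, and the counts leave them out.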

Additional observations from a re-analysis of the deposited data

Results flagged for a closer look

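In these data 3 differences between tumour effects passed the test of the difference itself. For Acod1 the tumour effect in MHCIIlow macrophages exceeded that in MHCIIhi macrophages by 1.51 on the log2 scale (limma, adjusted p = 0.020). Acod1 was higher in all 3 tumour libraries of the first and lower in all 3 of the second. How much of it came from neutrophil RNA was not tested. For Acod1 the tumour effect in neutrophils exceeded that in monocytes by 2.44 (adjusted p = 1.2e-04). For Cs the tumour effect in neutrophils exceeded that in monocytes by 0.57 (adjusted p = 0.0361). Groups of 3 libraries are too small for a test of single libraries that stand apart.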

How the results depend on the processing

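The 76 gene values reported and the counts of members called were recomputed under 10 other settings (11 within a tissue) and without each library in turn. Of 1334 recomputed gene values 1208 kept direction and side of the threshold, 87 lost the call, 15 gained it and 24 changed sign; of 266 recomputed counts 219 stayed within 1.5 times. The cause of each change was not tested.

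Scaling to the reads counted was chosen after seeing the data. It turned the tumour difference of Ogdh, Fh1 and Mdh1 in neutrophils to -0.14, -0.13 and -0.025, that of Idh2 and Mdh1 in monocytes to -0.0053 and -0.049, that of Ogdh between tumour monocytes and macrophages to -0.024 and that of Mdh2 between tumour neutrophils and monocytes to -0.67. Quantile normalization turned the last pair of values to -0.031 and -0.54. Centring on the library median turned Mdh2 between LP neutrophils and monocytes to 0.28, Cs between tumour neutrophils and monocytes to 0.028 and the mean macrophage difference of Acod1 to -0.043.

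Against 1 member called between tumour and LP monocytes, centring, the libraries compared alone and array weights each called 2. In neutrophils the libraries compared alone called 3 members, not 6. Between the LP macrophage subsets, log2(RPKM + 1), quantile normalization, the reads counted, array weights and voom called 2 members, not 1. Between the tumour subsets the libraries compared alone called 0 and the reads counted 2, not 1. The difference of tumour effects between neutrophils and monocytes gave 1 member, not 2, with no filter, quantile normalization, the libraries compared alone, the reads counted, array weights and voom; that between macrophages and monocytes gave 1 with quantile normalization and array weights and 2 with the reads counted, not 0. The fixed replicate block within a tissue called 0 members between the macrophage subsets in LP and in tumours, where 1 each was called without it; beside the calls named in the report as lost with the block it lost no other, and the random block called no fewer members in any comparison.

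Leaving out 1 library gave 2 to 3 members called in MHCIIhi macrophages, 3 to 4 in MHCIIlow, 3 to 6 over both, 0 to 2 in monocytes and 5 to 7 in neutrophils. It gave 0 to 1 between the macrophage subsets of either tissue, 0 to 1 and 1 to 2 for the differences of tumour effects by subset and between neutrophils and monocytes, and values from -0.38 to 0.12 for Mdh2 in MHCIIhi macrophages. It gave -0.040 to 0.065 for Acod1 over both subsets, -0.071 to 0.33 for Idh2 and -0.093 to 0.28 for Mdh1 in monocytes, and -0.061 to 0.036 for Mdh2 between LP neutrophils and monocytes.

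Over all genes, 2511 calls in MHCIIhi macrophages became 3788 with array weights and 3797 with voom, 1197 in monocytes became 1869 with array weights, and 4142 in neutrophils became 2366 with the libraries compared alone and 2625 with array weights. Between the macrophage subsets 991 calls in LP ranged from 616 (fixed block) to 1916 (array weights) and 146 in tumours from 4 (libraries compared alone) to 297 (array weights). The 188, 1173 and 1183 calls of the differences of tumour effects ranged from 87 to 539, from 528 to 1823 and from 1140 to 1902. The higher share of the calls moved with the scaling, from 40.8% to 57.1% (centring) and 15.9% (reads counted) in tumour against LP neutrophils, and from 40.0% to 53.1% and 15.5% between tumour neutrophils and monocytes. Relative to the reads counted it moved from 41.1% to 52.2% in MHCIIhi macrophages, from 52.3% to 33.0% in monocytes, from 27.6% to 63.8% and from 50.0% to 79.3% between the subsets in LP and tumours, from 56.0% to 34.5% between tumour monocytes and macrophages and from 44.2% to 21.3% between LP neutrophils and monocytes. With 3 libraries a group, changes of 1 on the log2 scale were often missed in simulated data.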
